A study of Oryza sativa with 46 samples.

Results

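The salt response of the wild rice Oryza latifolia was described from its own seedlings, grown hydroponically without added NaCl (0 mM) or with 120 mM NaCl for 48 h. The dose was reached in steps, with calcium chloride added alongside the NaCl, and RNA was taken 16 days after emergence. Oryza latifolia is a wild Oryza species with a tetraploid genome of the C and D types, distinct from the A genome of cultivated rice, and in this series it was hybridised to 1-colour Agilent probes designed on cultivated rice. Each array carried the RNA of 1 individual seedling of 1 O. latifolia germplasm accession, and pieces of root, stem and leaf stood for the whole plant where a seedling was large. The labels gave 3 arrays at 0 mM and 3 at 120 mM, out of 46 arrays of 8 genotypes in all. Probes were retained if they were well above background on all 3 arrays at 0 mM or on the arrays 120 mM replicate 1 and replicate 3, which kept 21197 of 42477 probes (49.9%), naming 14818 loci. The comparison asks which transcripts of this species differ between salt-stressed and unstressed seedlings.

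High salinity reaches a rice plant first as a shortage of available water and later as sodium and chloride accumulating in the leaf. Plants respond to the water shortage largely through abscisic acid, a hormone whose level is set by its synthesis from carotenoids and whose signal is held back by type 2C protein phosphatases. Downstream, dehydrins and other late embryogenesis abundant (LEA) proteins protect dehydrating cells, compatible solutes hold water, and transporters of the HKT and NHX families move sodium out of the xylem stream or into the vacuole.

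Before any comparison, each array was set against its label. After the median of each probe over the 46 arrays was subtracted, the 3 arrays at 0 mM and replicates 1 and 3 at 120 mM correlated with the mean of the other O. latifolia arrays at r = 0.896 to 0.934 across probes, and arrays of the other genotypes at -0.115 to 0.126. The array labelled 120 mM replicate 2 correlated at 0.00767 with O. latifolia and at 0.466 with the cultivated variety PSBRc50, the genotype it was most like. It also had 35094 probes well above background, against 20914 to 23526 on the other 5 O. latifolia arrays and 26898 to 36693 on arrays of other genotypes. It is called the left-out array hereafter, results are led by the 5 remaining arrays, and its own level is given beside those of the seedlings. Since it was most like another genotype, its level is a description and no measure of the salt response of O. latifolia. In all, 8 of the 46 arrays were most like a genotype other than the one on their label, none of them labelled O. rufipogon or Pokkali, the genotypes used for comparison below. These correlations are a description across probes that share arrays and base composition.

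**Figure D1:**
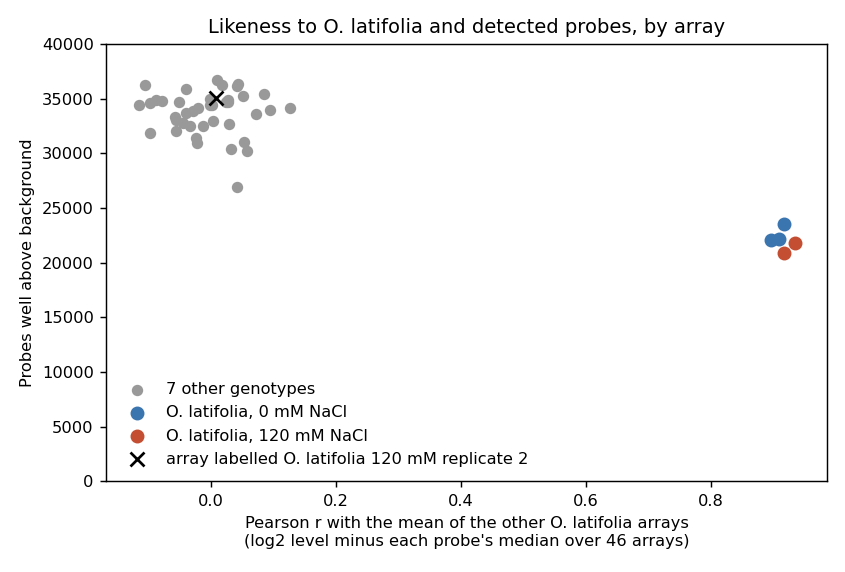
The number of probes well above background on each array (vertical axis) is plotted against the Pearson correlation of that array with the mean of the other O. latifolia arrays (horizontal axis). The 5 arrays kept lie between r = 0.896 and 0.934, and the left-out array (cross) lies at 0.00767 among the arrays of other genotypes.

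Fewer cultivated-rice probes reported signal from this species than from rice itself. Of the 31652 probes well above background on all 4 arrays labelled Nipponbare and most like it, 64.1% were retained for O. latifolia. The share retained depended on the part of the transcript a probe was designed on. Of probes lying wholly in coding sequence 88.2% were retained (351 of 398), and of probes spanning the 5′ UTR and coding sequence 71.0% (588 of 828). The share was 52.6% for those spanning coding sequence and 3′ UTR (15781 of 29978), 34.7% for those labelled UTR (384 of 1106), and 23.5% for gene predictions without an expressed sequence (616 of 2617). On the 4 Nipponbare arrays the corresponding shares were 89.9%, 80.9%, 80.3%, 64.4% and 50.7%. By chromosome, as read from the locus name, the retained share was highest on chromosome 3 (57.1%) and lowest on chromosome 11 (38.0%). The files pair probes with locus names but hold no probe sequences, so matches to the O. latifolia genome were not examined, and low RNA and a poor match cannot be told apart at a dim probe.

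The photosynthetic machinery, which would mark the leaf part of a seedling, was bright on all 5 arrays. Of the listed light-harvesting loci, which encode the chlorophyll-binding antenna proteins, 12 of 13 were retained. Their mean level was 15.83, 15.78 and 15.57 (log2 signal, quantile-normalized, as for all levels below) at 0 mM and 15.26 and 15.52 at 120 mM. The 2 arrays at 120 mM lay below the 3 at 0 mM, by less than 1 unit. The 4 retained carbon fixation loci averaged 17.30, 17.43 and 17.51 at 0 mM and 17.47 and 17.43 at 120 mM, with the groups overlapping. In whole seedlings, a change in the share of a tissue and a change of RNA per cell cannot be told apart.

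Between 120 mM and 0 mM, 40 of the 21197 retained probes (0.189%), belonging to 39 loci, passed the test, with 30 higher (0.142%) and 10 lower (0.0472%) under salt. The test was limma's moderated test on the 5 arrays with Benjamini-Hochberg adjustment across the 42477 probes of the array, called at an adjusted p below 0.05. Over all 42477 probes the same fit called 161, with 68 higher and 93 lower. Among the 21280 probes not retained it called 121, with 38 higher and 83 lower, so the excess of rises held for retained probes only. Without adjustment 2598 retained probes had p below 0.05. All 40 called retained probes had groups that did not overlap, and so moved the same way on both shared slides (replicate 1 and replicate 3). This describes the values that made the calls and is no separate check. With quantile normalization among the 5 arrays alone the split was 31 higher of 32, with scaling to the 75th percentile 60 of 69, and with normexp background correction 15 of 15. In that order, 22, 22 and 12 of these calls were among the 40. Of the 39 loci, 24 had no descriptive annotation in the study's tables. The 18 called probes that were well above background on all 5 arrays (0.0952% of such probes) all rose, by 2.10 to 6.83 on the log2 scale. The called falls among retained probes were all at probes detected on all arrays at 0 mM and on neither at 120 mM (10 of 306 such probes, 3.27%). These falls, and the 12 called rises at probes dim on 1 or more arrays at 0 mM, were retained only through the group in which they were bright, so their number and direction are a description.

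The calls rest on few arrays. With the left-out array included as one more replicate, 0 probes passed (824 retained probes at unadjusted p below 0.05), although all 40 kept their direction. With the slide as a block over all probes, 0 passed (2115 at unadjusted p below 0.05). The same block gave 505 calls, all 40 among them, once dim probes were removed before the fit. Removing dim probes alone gave 172 calls (0.811% of retained probes), with 143 higher (0.675%) and 29 lower (0.137%), again with all 40 among them. The calls ended (0 probes) without 0 mM replicate 1, without 0 mM replicate 3, without 120 mM replicate 1 or without 120 mM replicate 3, and 34 passed without 0 mM replicate 2. Genes that passed only after the removal of dim probes are named as such below.

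The steepest rise at a probe above background throughout was at Os03g0820500, annotated in the study's tables with an actin-binding domain of the cofilin type. Proteins of the cofilin family sever actin filaments. Its level was 9.86, 9.85 and 9.84 in the 3 seedlings at 0 mM and 16.63 and 16.73 at 120 mM. The groups were far apart and hardly varied within themselves, and the left-out array read 15.59. The rise was 6.83 ± 0.17 (log2, SE; 114-fold, adjusted p = 0.0133).

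Its neighbours by locus number, which runs along chromosome 3, were also higher at 120 mM. Os03g0820300 and Os03g0820400 carry the annotations ZPT2-14 and ZPT2-13, names of zinc-finger proteins first described in petunia. Os03g0820300 read 9.66, 9.56 and 9.99 at 0 mM and 14.28 and 14.27 at 120 mM on its called probe (13.01 on the left-out array), a rise of 4.54 ± 0.22 (SE, adjusted p = 0.0184). Its other probe had a difference of 4.27 and passed only with dim probes removed (adjusted p = 0.0217 there). Os03g0820400 read 10.12, 10.28 and 10.25 against 13.36 and 12.94, with 13.34 on the left-out array (rise 2.93 ± 0.22, adjusted p = 0.0409), and its other 2 probes had differences of 2.90 and 3.17, past the threshold only with dim probes removed. Os03g0820200, with no database match given, had a difference of 3.29 (11.84 on the left-out array) and passed only with dim probes removed. All 7 retained probes of these 4 loci were above background on all 5 arrays and at least 2-fold higher at 120 mM, with no overlap between groups. Over all 18915 probes above background on the 5 arrays, 3.45% were so. The loci were looked at for their place beside Os03g0820500, and some share a locus, so the 7 probes are a description. Chromosome 3 held 11 of the 40 calls among its 3103 retained probes, and chromosome 11 held 5 among 902, a higher share, beside 0.189% overall. Overlapping transcripts were not examined.

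LEA and dehydrin loci were higher at 120 mM throughout. Of the 8 listed loci, 4 were retained and all 4 had positive differences. Of these, 2 rose (0.142% of all retained probes did) and the other 2 passed only with dim probes removed (0.675%). Because the list was chosen with earlier results of these data known, its comparison with all retained probes is a description. The median difference of the 4 loci was 5.28, or 4.86 over the 3 above background on all 5 arrays. It was -0.01 over all retained probes. Os05g0542500, a group 3 LEA protein, read 7.26, 6.72 and 7.64 at 0 mM and 14.86 and 14.99 at 120 mM. The unstressed seedlings stood at the edge of detection (2 of 3 arrays above background, so that the probe was retained through 120 mM), and the stressed seedlings were among the brighter signals. The rise was 7.72 ± 0.34 (SE, adjusted p = 0.0147), the left-out array read 15.78, and the differences at the 3 retained probes of the locus ran from 7.72 to 9.48. Os05g0349800, embryonic abundant protein 1, read 7.83, 8.54 and 7.76 against 12.77 and 13.05, a rise of 4.86 ± 0.33 (SE, adjusted p = 0.0348). Here the left-out array, at 7.38, lay with the unstressed seedlings. Os11g0454300, the water-stress dehydrin RAB21, read 10.00, 10.10 and 8.75 against 15.52 and 15.11, with 16.37 on the left-out array. Its difference of 5.70 ± 0.51 (SE) did not pass over all probes (adjusted p = 0.062) and did with dim probes removed (adjusted p = 0.0187). Os02g0669100, the dehydrin COR410, was bright in both groups, at 14.58, 14.87 and 14.87 against 17.07 and 16.94 (left-out array 16.20), with a difference of 2.23 ± 0.20 (SE, adjusted p = 0.0617 over all probes and 0.0204 with dim probes removed). The remaining 4 listed loci had no retained probe.

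**Figure D2:**
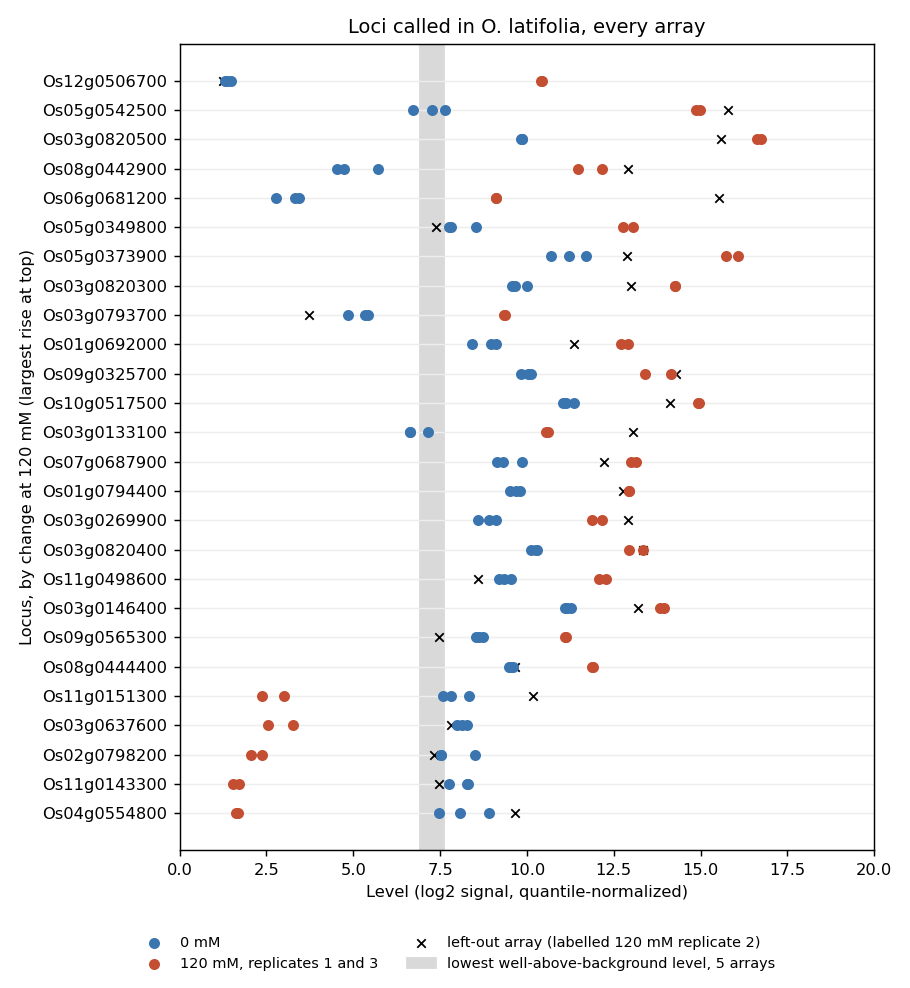
Each row is 1 called locus, with its log2 signal on each O. latifolia array (horizontal axis); blue points are 0 mM, red points 120 mM replicates 1 and 3, crosses the left-out array, and the grey band spans the lowest level called well above background on the 5 arrays. Red and blue points do not overlap in any row, and the bottom 5 rows show the falls, whose red points lie under the band.

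Abscisic acid loci gave mixed values. Os03g0645900, a 9-cis-epoxycarotenoid dioxygenase, which cleaves the carotenoid precursor in the first committed step of the hormone's synthesis, read 11.82, 12.18 and 12.04 at 0 mM and 14.58 and 14.18 at 120 mM. The change was 2.37 ± 0.24 (SE) and passed only with dim probes removed (adjusted p = 0.0247, against 0.0768 over all probes). The left-out array, at 9.48, was below every other array. The other 5 retained loci of the 8 listed for abscisic acid metabolism had differences of -0.61 to 1.09, and 0 of the 6 passed over all probes (1 with dim probes removed). The zeaxanthin epoxidase locus Os04g0448900, which acts earlier in the synthesis, read 13.82, 13.90 and 13.37 against 13.33 and 14.01 (left-out array 13.20), with the groups overlapping.

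All 8 retained loci of the type 2C protein phosphatase list (9 listed) had positive changes, from 1.10 to 3.78, with a median of 1.94. One rose over all probes, 3 with dim probes removed, and 7 of the 7 above background on all arrays had non-overlapping groups at least 2-fold apart. Over all 18915 probes above background on the 5 arrays, 652 (3.45%) were apart and at least 2-fold higher. The called locus, Os09g0325700, was placed on the list from general knowledge of rice locus numbers and has no annotation in the study's tables. It read 9.84, 10.02 and 10.12 against 14.15 and 13.39 (left-out array 14.28), a rise of 3.78 ± 0.30 (SE, adjusted p = 0.0477). Os03g0268600, annotated as a type 2C phosphatase, read 10.76, 11.86 and 10.79 against 14.33 and 13.76, with 13.80 on the left-out array (difference 2.91 ± 0.46, SE), and did not pass under either fit (adjusted p = 0.204 and 0.0676).

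Of the stress transcription factor list, 21 of 25 loci were retained, 0 passed over all probes, and 1 passed with dim probes removed. Their median change was 0.62, with a range of -1.56 to 6.26. Among the loci above background on all 5 arrays, 8 of 17 were apart and at least 2-fold higher and 1 was so lower (background 3.45% and 1.74%). Os06g0127100, a CBF-like protein of the family that binds drought- and cold-response elements, read 10.27, 9.73 and 9.34 against 12.12 and 11.81 (left-out array 8.06), and did not pass (adjusted p = 0.204). The small heat shock proteins, chaperones of unfolding proteins, had 4 of 7 loci retained, with changes of 1.52 to 2.89. Os03g0267000, listed without an annotation in the study's tables, read 9.48, 9.43 and 9.98 against 12.65 and 12.39 (left-out array 5.42) and passed only with dim probes removed (adjusted p = 0.0204).

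No listed sodium transporter passed the test over all probes. Of 14 listed loci, 10 were retained, and their median difference was 0.66. Os07g0666900, listed as a vacuolar exchanger without an annotation in the study's tables, had 3 retained probes with differences of 1.62 to 1.76, and all 3 passed with dim probes removed (adjusted p = 0.0342 for the brightest). The brightest read 10.70, 11.01 and 10.85 at 0 mM and 12.56 and 12.67 at 120 mM (left-out array 11.46). Os05g0382200, annotated as similar to a sodium/proton exchanger, read 8.88, 8.97 and 10.20 against 11.69 and 11.26 (left-out array 6.56), and its difference of 2.12 ± 0.51 (SE) did not pass (adjusted p = 0.389). The HKT-type sodium transporter Os06g0701700 read 10.42, 9.08 and 9.78 against 8.82 and 8.84 (left-out array 5.68), a difference of -0.93 that also did not pass (adjusted p = 0.679). The annotated HKT1 locus Os01g0532600 ranged from 1.95 to 7.64 at 0 mM, straddling the detection limit, and read 4.63 on the left-out array. The potassium transport list had 8 of 14 loci retained, changes of -1.26 to 0.99 and 0 calls under either fit.

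In other groups no locus passed over all probes. The 12 light-harvesting loci had differences of -1.09 to 0.19, the 4 carbon fixation loci by -0.10 to 0.19, and the 13 retained antioxidant enzyme loci by -0.69 to 0.78. The CP29 antenna protein Os07g0558400 read 14.72, 14.03 and 14.55 against 12.95 and 13.73, below in both stressed seedlings and 15.82 on the left-out array, with a difference of -1.09 ± 0.37 (SE, adjusted p = 0.538). Os05g0455500, the enzyme that commits glutamate to proline synthesis, read 12.45, 12.59 and 12.43 against 12.85 and 12.46 (left-out array 13.03). The 15 retained aquaporin loci had differences of -1.77 to 1.15, and the 5 reference loci of -0.77 to 0.23. The listed clock locus Os08g0157600 had overlapping groups with a wide spread, at 11.23, 11.90 and 15.08 against 15.83 and 12.78 (left-out array 11.27).

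The salt-induced lectin of rice, a jacalin-related lectin at Os01g0348900, gave no measure of salt response here. None of its 5 probes was retained, and they ranged from 1.67 to 8.87 over the 5 arrays. On the left-out array all 5 were well above background, at up to 17.77. Over all lists, 158 of 213 loci were retained (212 were on the array), 3 rose over all probes and 11 with dim probes removed, beside 0.142% and 0.675% of all retained probes that rose under the same fits. The lists were written from general knowledge of rice locus numbers, with earlier results of these data known. Of the 213 loci, 89 carry an annotation in the study's tables. Among the 3 loci that rose, Os05g0542500 was retained only through its salt-stressed arrays. Comparisons of a list with the share over all retained probes or all probes above background, here and above, are therefore a description.

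**Figure D3:**
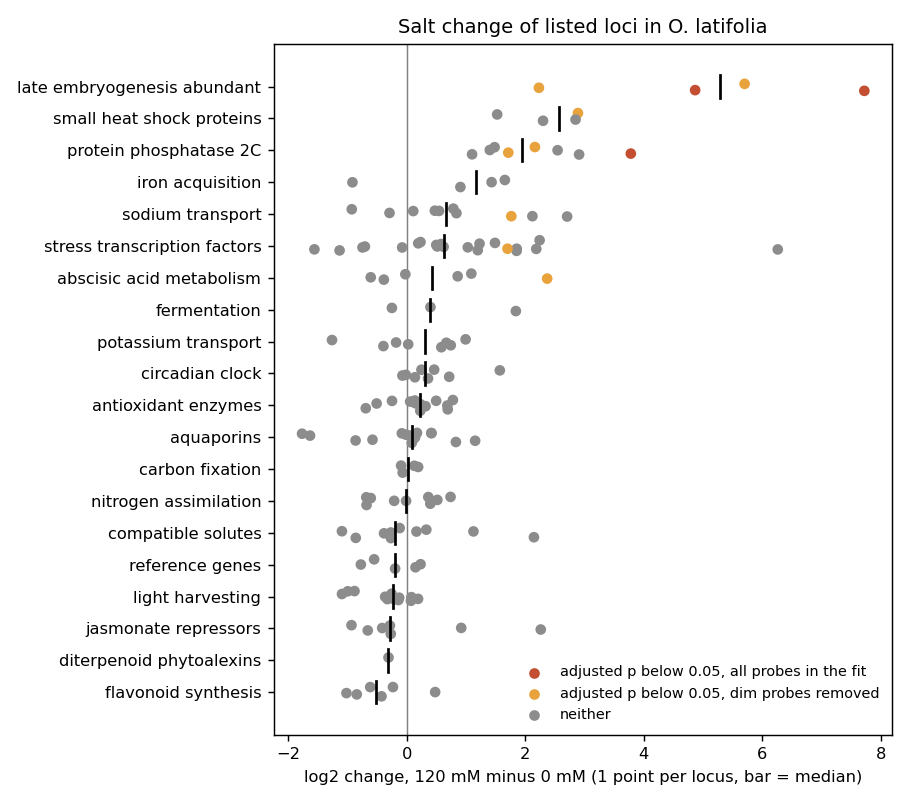
Each point is the log2 change (120 mM minus 0 mM, horizontal axis) of 1 retained locus of a list (vertical axis), with black bars at list medians; red points passed over all probes, orange points only with dim probes removed. The LEA points lie between 2.23 and 7.72, and the light-harvesting points between -1.09 and 0.19.

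Several called loci lay outside the lists. Os05g0373900, annotated as a subunit of the eukaryotic release factor that ends translation, read 11.21, 11.72 and 10.69 at 0 mM and 16.07 and 15.74 at 120 mM, a rise of 4.70 ± 0.38 (SE, adjusted p = 0.0477). Os01g0692000, a glutathione S-transferase of a family that conjugates glutathione to reactive compounds, read 9.10, 8.98 and 8.41 against 12.70 and 12.90 and rose by 3.97 ± 0.29 (SE, adjusted p = 0.0407). For both, the left-out array fell between the groups, at 12.87 and 11.35. Of the 15 loci with the largest rises above background on all arrays, 9 had no descriptive annotation and rose by 2.36 to 3.78. Os05g0595100, a UDP-glucose 4-epimerase, which converts a sugar nucleotide for cell-wall and galactolipid synthesis, had a narrow spread, at 12.49, 12.45 and 12.54 against 14.64 and 14.54 (left-out array 15.58). It rose by 2.10 ± 0.17 (SE, adjusted p = 0.0492) at this probe, had a difference of 1.02 at its other retained probe, and was named after its values were seen.

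For probes dim in 1 group only a bound can be given, taken against the lowest level called well above background on each array among probes with 1 spot. An adjusted p beside a bound is that of the fit to the signals as read, dim ones included, and does not test the bound. These probes were retained through their bright group, so the bounds are a description. Os08g0442900, a conserved hypothetical protein, read 5.71, 4.53 and 4.73 at 0 mM, not well above background, and 12.16 and 11.46 at 120 mM (left-out array 12.92). It was at least 23.7-fold higher under salt (adjusted p = 0.0374). Os03g0133100 was at least 10.1-fold higher (adjusted p = 0.0348; left-out array 13.06), and Os12g0506700 at least 9.04-fold higher (adjusted p = 0.0133), having read 1.32, 1.47 and 1.38 against 10.43 and 10.41. On the left-out array Os12g0506700 read 1.25, as dim as in the unstressed seedlings. Os03g0793700 and Os06g0681200 were at least 4.34-fold and 3.65-fold higher (adjusted p = 0.0285 and 0.0184), and the left-out array read 3.71 and 15.52. Only 1 of the 4 retained probes of Os03g0793700 was called, and their differences ran from -0.46 to 4.16. The Os11g0701400 chitinase, an enzyme that cuts fungal cell-wall chitin, read 1.25, 1.19 and 1.91 against 8.18 and 8.14 (left-out array 2.03), at least 1.89-fold higher (adjusted p = 0.0156). The oleosin Os04g0546500, a coat protein of seed oil bodies, was at least 2.13-fold higher (adjusted p = 0.0477; left-out array 3.99) at 1 of its 6 retained probes, whose differences ran from 0.73 to 2.40. The chitinase and the oleosin were named after their values were seen.

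The called falls were small as bounds. At Os10g0368400 and Os06g0641400 the bound was 0.923-fold and 0.970-fold, so it showed no fall there. Os11g0143300, a type-A response regulator, a class that damps cytokinin signalling, read 8.28, 7.76 and 8.29 at 0 mM and 1.71 and 1.54 at 120 mM, where it was not well above background. It was at least 1.49-fold lower (adjusted p = 0.0133). As for the rises, this adjusted p is that of the fit to the signals as read and does not test the bound. Os03g0637600, an extensin-like cell-wall protein, read 8.28, 8.14 and 8.00 against 3.26 and 2.53 and was at least 1.52-fold lower (adjusted p = 0.0233) at 1 of its 3 retained probes. The differences at the 3 ran from -5.24 to -0.35. The largest bound was 1.54-fold, at Os04g0554800, and the left-out array read 7.48, 7.82 and 9.65 at the called probes of these 3 loci. The strongest falls measured on both sides passed only with dim probes removed. Os01g0642200, without annotation, read 16.33, 16.57 and 16.07 against 13.69 and 13.42 on 1 probe, with 13.27 on the left-out array (change -2.77 ± 0.24, SE, adjusted p = 0.0187 with dim probes removed), and its other probe gave -2.78. Os05g0579600 read 11.98, 11.90 and 11.88 against 9.87 and 9.84, with 5.35 on the left-out array (change -2.06 ± 0.17, SE, adjusted p = 0.0187 with dim probes removed). Both were named after their values were seen.

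More annotated rises passed only with dim probes removed. Os02g0513100, annotated as NEC1, a nectary protein name from petunia, read 9.26, 9.64 and 10.50 against 14.55 and 14.76, with 13.83 on the left-out array (change 4.85 ± 0.44, SE, adjusted p = 0.0187 with dim probes removed). The lectin precursor Os04g0173800, an agglutinin that binds sugars, read 14.68, 14.96 and 14.33 against 17.58 and 17.32, and its 2 probes changed by 2.79 and 2.96. The left-out array, at 11.59, lay below all seedlings at 0 mM. The beta-amylase Os10g0465700, which releases maltose from starch, changed by 2.25 ± 0.23 (SE, adjusted p = 0.0255 with dim probes removed; left-out array 13.06). Glutamate decarboxylase Os08g0465800, which makes the amino acid GABA, changed by 1.87 ± 0.24 (SE, adjusted p = 0.0426 with dim probes removed; left-out array 12.51) at 1 of its 5 retained probes. These examples were chosen after their values were seen.

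The same contrast in O. rufipogon, the wild ancestor of cultivated rice, and in the indica landrace Pokkali allows a test of where O. latifolia differed; each has 3 arrays per dose. Only changes within a species were compared, since a level of the same probe in different species also depends on the match of its sequence. Of the 40 called probes, 36 had the same sign in O. rufipogon and 34 in Pokkali. Over probes above background on all 11 arrays of each comparison, the same sign was seen at 68.9% for O. rufipogon and 65.5% for Pokkali. Only 18 of the 40 were above background on all 5 O. latifolia arrays. Those shares therefore cover unlike probes and are no baseline for the 40. The difference between doses at the LEA locus Os05g0542500 was 7.72 in O. latifolia, 8.20 in O. rufipogon and 4.22 in Pokkali. The corresponding values of Os03g0820500 were 6.83, 4.49 and 4.13. Those of the phosphatase-list locus Os09g0325700 were 3.78, 3.98 and 2.06. These probes were chosen for their change in O. latifolia, so the values are a description.

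**Figure D4:**
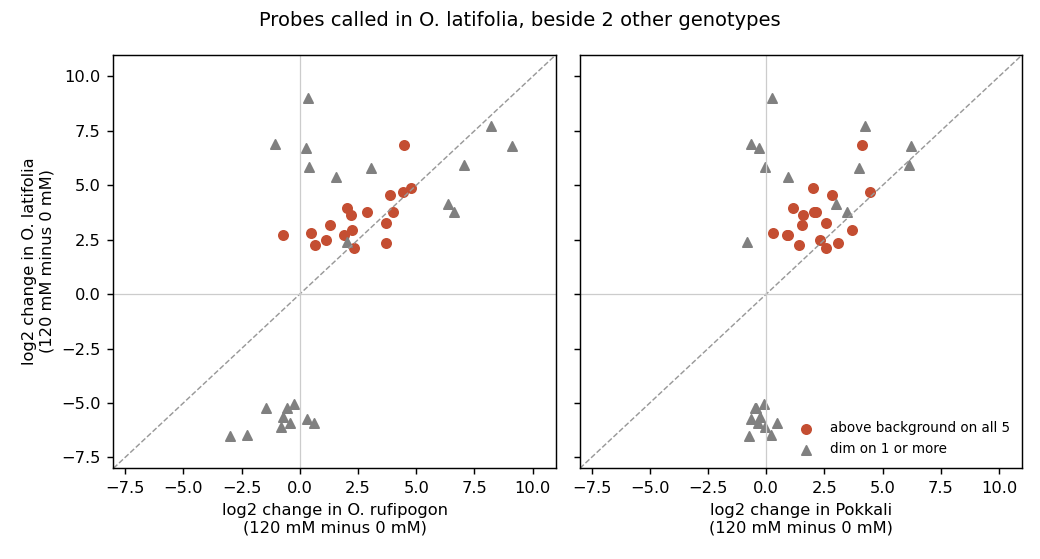
Each point is 1 of the 40 probes called in O. latifolia, with its log2 change there (vertical axis) against its log2 change in O. rufipogon (left) or Pokkali (right); the dashed line marks equal changes. The rises above background on all 5 arrays (circles) lie right of 0 except 1 in the O. rufipogon panel, and the falls (triangles, lower part) lie between -3.02 and 0.62 for O. rufipogon and between -0.74 and 0.46 for Pokkali; triangles are probes dim on 1 or more O. latifolia arrays.

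The difference of salt effects between O. latifolia and O. rufipogon was tested as an interaction in limma over 11 arrays. It passed for 17 of the retained probes (0.0802%), 6 with the larger value in O. latifolia (0.0283%) and 11 with the smaller (0.0519%), and for 5 of the 17147 probes above background on all 11 arrays (0.0292%). Os04g0627900, of the SUI1 family of translation initiation factors, which help choose the start codon, read 8.85, 8.34 and 9.15 at 0 mM and 13.15 and 11.84 at 120 mM in O. latifolia (left-out array 11.50). In O. rufipogon it read 8.16, 9.86 and 9.28 against 7.73, 8.16 and 7.57. The effects, 3.72 and -1.28, differed by 5.00 ± 0.76 (SE, adjusted p = 0.0333). The O. latifolia effect passed only with dim probes removed (adjusted p = 0.0463, against 0.151 over all probes). The O. rufipogon effect did not pass (adjusted p = 0.386).

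At 3 loci the effect was smaller in O. latifolia than in O. rufipogon. Os05g0170200, a conserved hypothetical protein, read 8.46, 9.28 and 8.19 against 8.13 and 7.83 in O. latifolia, and 14.11 on the left-out array, which turned its effect to 1.38 when included. In O. rufipogon it read 6.85, 7.53 and 7.42 against 11.15, 13.70 and 12.12, and the effects of -0.66 and 5.06 differed by -5.72 ± 0.90 (SE, adjusted p = 0.0401). Its second probe gave a difference of -5.59 and did not pass (adjusted p = 0.0733). Os08g0546300, with a lipid transfer and seed storage protein domain, read 9.86, 9.74 and 9.90 against 9.98 and 10.29 in O. latifolia (left-out array 11.09). In O. rufipogon it read 6.56, 6.99 and 6.80 against 9.71, 10.15 and 10.07, a difference of effects of -2.89 ± 0.38 (SE, adjusted p = 0.0174), and its second probe gave -2.87. Os01g0250600, unannotated, had effects of -0.06 in O. latifolia and 2.45 in O. rufipogon, a difference of -2.51 ± 0.39 (SE, adjusted p = 0.0401), with 9.42 on the left-out array. The effects of Os08g0546300 and Os01g0250600 in Pokkali were 0.76 and -0.13. Their differences from Pokkali, -0.45 and 0.07, did not pass.

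Against Pokkali, 18 of the retained probes differed (0.0849%), with 7 larger (0.033%) and 11 smaller (0.0519%) in O. latifolia, as did 4 of the 18082 above background on all 11 arrays (0.0221%). Os05g0170200 was among them again, with the same O. latifolia arrays and an effect of 2.87 in Pokkali. It read 9.31, 8.74 and 9.16 there at 0 mM and 11.60, 12.48 and 11.75 at 120 mM, and the difference was -3.54 ± 0.54 (SE, adjusted p = 0.0288). Os11g0498600, unannotated, read 9.55, 9.21 and 9.34 against 12.09 and 12.27 in O. latifolia (left-out array 8.58) and 9.87, 9.57 and 10.14 against 9.72, 10.27 and 10.40 in Pokkali. The effects of 2.81 and 0.27 differed by 2.54 ± 0.39 (SE, adjusted p = 0.0304). Os03g0277000, a GDP dissociation inhibitor, which returns small GTPases of vesicle traffic to the cytosol, had effects of 1.43 in O. latifolia and -0.59 in Pokkali, a difference of 2.03 ± 0.32 (SE, adjusted p = 0.0376). The left-out array read 4.76 there and turned the O. latifolia effect to -0.33 when included. Without it, that effect passed only with dim probes removed (adjusted p = 0.0463, against 0.132 over all probes). With the left-out array included, only 2 retained probes differed from O. rufipogon and 4 from Pokkali, and the probes named here did not pass. With the replicate block, and with 75th percentile scaling, none of the differences from Pokkali named here passed. Of the 4 differences from O. rufipogon, 2 passed with the block (Os05g0170200 and Os08g0546300) and 1 with the scaling (Os04g0627900).

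**Figure D5:**
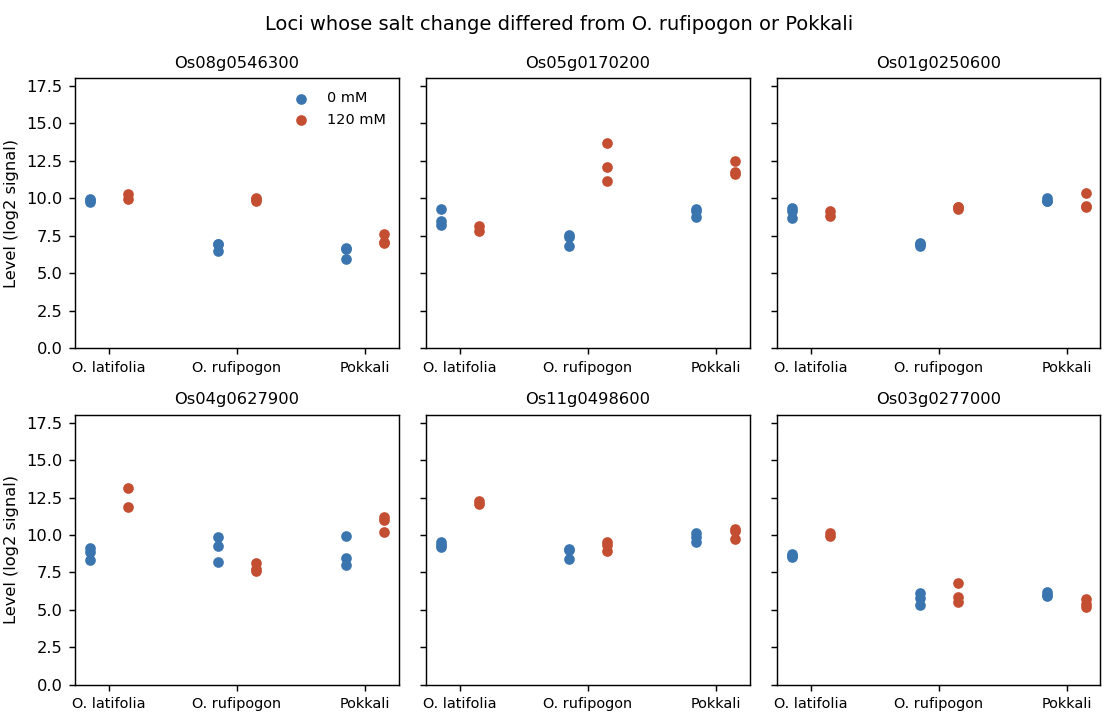
Log2 signal on each array (vertical axis) of 6 loci in O. latifolia (5 arrays), O. rufipogon and Pokkali (6 each), with 0 mM in blue and 120 mM in red. Os05g0170200 stays between 7.83 and 9.28 in O. latifolia while red points stand above blue in the other genotypes, and Os04g0627900 shows the opposite order in O. latifolia and O. rufipogon. The nearest red and blue points of Os04g0627900 in O. rufipogon both read 8.16.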

How the data were processed

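The deposited scanner files (Agilent Feature Extraction 10.7.3.1 per the file headers) held the authors' background-corrected processed signal, an intensity per spot, for 46 arrays, and the authors' own table held normalized log2 values. The processed signal was taken to log2, quantile-normalized over all arrays after outlier-flagged spots (19 to 563 per array) were set aside, and averaged per probe; control spots were left out and 0 spots were saturated. A probe was well above background on an array if at least 0.5 of its spots carried that flag. Groups came from the sample titles. limma 3.58.1 in R 4.3.3 compared 120 mM with 0 mM (2 against 3 arrays) and tested the interaction with O. rufipogon or Pokkali, with Benjamini-Hochberg adjustment over all 42477 probes; the fit was tested on simulated data. In O. latifolia and O. rufipogon, arrays with 1 replicate number shared a slide and a scan day. Pokkali arrays with that number shared another slide and another day, so in the Pokkali comparison the replicate block does not adjust for the slide. The difference between O. latifolia replicates 1 and 3 at 0 mM and at 120 mM correlated at 0.133 across retained probes. The fit reported has no block, and the fit with the replicate number as a block is an alternative. The number of arrays limits the precision. In the fit without a block, p-values measure the spread between single seedlings together with that between slides and scan days.

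Named genes were the 15 largest rises and falls above background on all 5 arrays, the 5 largest bounds each way, called loci of the lists, and the 5 largest differences from O. rufipogon each way, with 1 probe per locus; 0 falls met the first criterion. For a list, the brightest retained probe stood for its locus. The members and lists were chosen with earlier results of these data known. Alternatives were other scalings, background corrections, filters, blocks and arrays.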

Additional observations from a re-analysis of the deposited data

Results flagged for a closer look

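The salt effect of O. latifolia differed from that of O. rufipogon, by the tested interaction, at Os04g0627900 (5.00 on the log2 scale), Os05g0170200 (-5.72), Os08g0546300 (-2.89) and Os01g0250600 (-2.51). It differed from that of Pokkali at Os05g0170200 (-3.54), Os11g0498600 (2.54) and Os03g0277000 (2.03). The left-out array read 14.11 at Os05g0170200, where the 5 O. latifolia arrays read 7.83 to 9.28. None of these differences passed with the left-out array included. Those from Pokkali passed neither with the replicate block nor with 75th percentile scaling, and of the 4 from O. rufipogon 2 were lost with the block and 3 with the scaling. At Os04g0627900, Os08g0546300 and Os01g0250600 the differences from Pokkali were 1.72, -0.45 and 0.07 and did not pass.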

How the results depend on the processing

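The count of calls in O. latifolia (40; 3 among the lists) fell to 0 and 0 with all 6 arrays and with the replicate block, which here equals the slide or the scan day as a block. It ranged from 0 to 34 (0 to 2 among the lists) without 1 array in turn. Scaling to the 75th percentile, which moved the median of all probes by 0.21, gave 69 and 6 calls. Removing dim probes gave 172 and 11. A spread shared by all genotypes gave 172 calls, of which 19 were among the 40, and normexp background correction gave 15. Of settings chosen after seeing the data, fitting only probes above background on all 5 arrays gave 219 and 16 calls, removing dim probes with the replicate block gave 505, and removing them with all 6 arrays gave 6. The authors' processed values gave 40 calls, 39 of them shared. Of the 40 probes, none turned direction under a setting that tested it. These settings reuse the arrays that made the calls, so the kept direction is no separate check.

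The 17 differences from O. rufipogon became 2 with the left-out array, 8 with 75th percentile scaling, 14 with the replicate block, and 11 to 40 without 1 array in turn. The 18 from Pokkali became 4, 1, 12 and 13 to 65. Against O. rufipogon the count was 29 without O. latifolia 0 mM replicate 2, 40 without its 120 mM replicate 3, 34 without O. rufipogon 120 mM replicate 1 and 11 without its 0 mM replicate 3. Against Pokkali it was 49 and 65 without the same O. latifolia arrays and 31 without Pokkali 120 mM replicate 3. These counts cover all retained probes, and the differences named above often did not pass without 1 array in turn. With 3 residual degrees of freedom (1 with the block), small differences could not be resolved, and probes near background gave only bounds.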
